A study of Homo sapiens with 4 samples.

Results

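The MER-named long terminal repeats (LTRs) described here are the subfamilies whose annotation name is MER followed directly by a whole number, with MER11, MER41 and MER57 left out. The rule used names only and no measured value. It took in 94 of the 373 LTR subfamilies in the deposited table (25.2%), under 33 MER numbers. MER4 was the largest group with 10 subfamilies, followed by MER34 with 8, MER61 with 6 and MER51 with 5. MER9, MER65, MER66 and MER67 had 4 each, and MER21, MER50, MER52, MER70, MER74, MER83 and MER92 had 3 each. The other 28 subfamilies fell under 10 numbers with 2 members and 8 numbers with 1 member.

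The values come from native ChIP-seq, without cross-linking, in HCT116, an established human colorectal carcinoma line. The treatment was 24 h of either PBS or 5-aza-CdR at 300 nM, with collection at day 5. 5-aza-CdR (decitabine) is an inhibitor of DNA methylation that is built into DNA and traps the enzymes that methylate it. The 4 groups were H3K9me2 after PBS, H3K9me2 after 5-aza-CdR, H3K9me3 after PBS and H3K9me3 after 5-aza-CdR. Each had 1 library, so no difference between treatments has a replicate check and no test was made. The antibodies were Abcam ab1220 for H3K9me2 and Active Motif AM39161 for H3K9me3.

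MER stands for medium reiterated sequence, a catalogue term given to repeats before their origin was known, so a shared MER prefix does not mean shared ancestry. The LTR members flank endogenous retroviruses of different classes, and subfamilies under 1 number are usually variants of 1 LTR. By repeat annotation, 72 of the 94 are LTRs of the ERV1 class, related to gammaretroviruses, 18 of the older ERVL class, and 4, all MER9, of the ERVK class, related to betaretroviruses. LTRs carry the promoter and enhancer sequences of a provirus. H3K9me2, written mainly by G9a and GLP, and H3K9me3, which SETDB1 writes at repeats bound by KRAB zinc finger proteins and TRIM28, are marks of silent chromatin that act beside DNA methylation at such repeats. Because methylated CpG sites are lost by mutation over time, the CpG density of a repeat tends to fall with its age.

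Each value is the authors' z-score of 1 subfamily in 1 library, a relative scale, and the sources used here do not say what it was centred on. Over all 373 subfamilies the median z-score was -0.412 for H3K9me2 in PBS, 0.312 for H3K9me2 in 5-aza-CdR, -0.504 for H3K9me3 in PBS and 0.468 for H3K9me3 in 5-aza-CdR. The depth behind the values is unknown. What a shift between libraries amounts to in histone methylation cannot be read from this scale.

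As a set the 94 MER LTRs lay near the middle of the table, with medians slightly under those of all subfamilies in all 4 libraries. Their median H3K9me2 z-score was -0.439 in PBS (lowest -0.684, highest -0.0566) and 0.289 in 5-aza-CdR (lowest -0.152, highest 0.912). Their median H3K9me3 z-score was -0.506 in PBS (lowest -0.563, highest -0.423) and 0.450 in 5-aza-CdR (lowest 0.150, highest 0.765). The other 279 subfamilies had medians of -0.397 and 0.329 for H3K9me2 and of -0.504 and 0.474 for H3K9me3. The MER LTRs were less spread out than these, with an SD over subfamilies of 0.122 against 0.204 for H3K9me2 in PBS and 0.143 against 0.223 for H3K9me3 in 5-aza-CdR. The highest and the lowest z-score of the table in each library belonged to other LTRs.

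**Figure D1:**
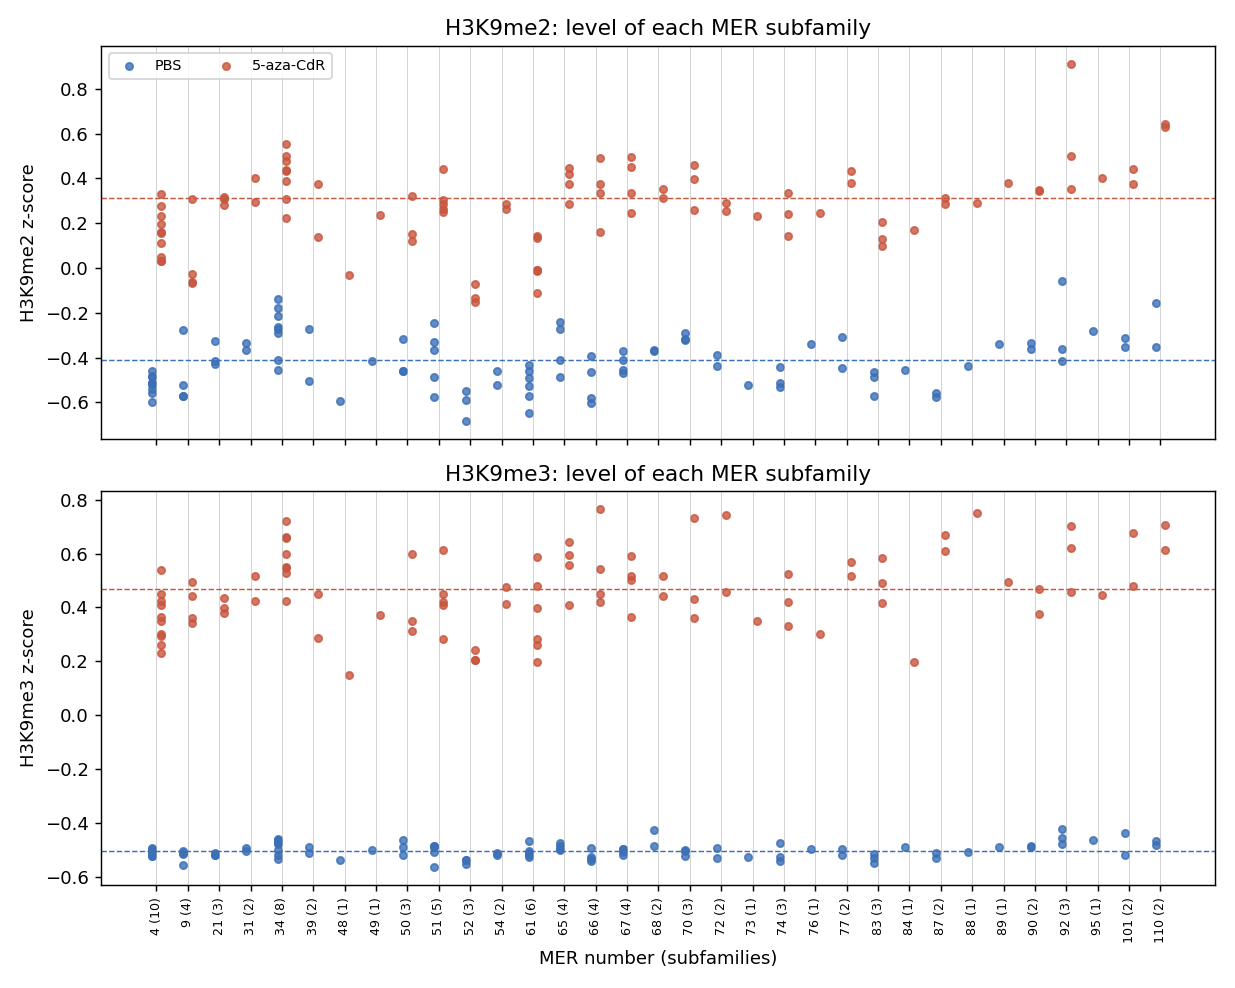
Deposited z-scores (y axis, no unit) of H3K9me2 (top) and H3K9me3 (bottom) for the 94 MER LTR subfamilies, by MER number with the number of subfamilies in brackets (x axis). Each point is 1 subfamily in 1 library, and dashed lines are the medians of all 373 subfamilies. H3K9me3 in PBS lies in a narrow band between -0.563 and -0.423. The lowest H3K9me2 values in 5-aza-CdR are those of the MER52 subfamilies and MER61B.

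CpG density separated the MER numbers more than either mark did. The median CpG density of the 94 was 0.00740, close to 0.00734 in the whole table. It was highest at MER48 (0.0301), MER52D (0.0176) and MER9a1 (0.0152) and lowest at MER34C (0.00357), MER34C_ (0.00425) and MER92A (0.00441). Among the 15 numbers with at least 3 members, which hold 66 subfamilies, 80.4% of the variance of log2 CpG density lay between numbers, adjusted for how many numbers there are. The same share was 46.7% for H3K9me2 in PBS, 64.8% for H3K9me2 in 5-aza-CdR, 35.0% for H3K9me3 in PBS and 34.4% for H3K9me3 in 5-aza-CdR. As deposited, subfamilies of 1 number thus resembled each other, in H3K9me2 after 5-aza-CdR most and in H3K9me3 least. Part of this went with CpG density. For distances from the line on log2 CpG density described below, the share was 35.7% for H3K9me2 in PBS and 47.8% in 5-aza-CdR. For H3K9me3 in 5-aza-CdR it was 35.4%, close to that of H3K9me2 in PBS. Only H3K9me3 in PBS had a clearly lower share on that scale.

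Across the 94 subfamilies, the CpG-rich ones had the lower z-scores. The Spearman correlation with CpG density was -0.52 for H3K9me2 in PBS, -0.61 for H3K9me2 in 5-aza-CdR, -0.47 for H3K9me3 in PBS and -0.45 for H3K9me3 in 5-aza-CdR. Among the other 279 subfamilies it was -0.77, -0.79, -0.64 and -0.71 in the same order. The subfamilies share libraries and descent, so these coefficients are descriptions. They were weaker in the MER LTRs, whose CpG densities spanned a narrower range (0.00357 to 0.0301, against 0.00171 to 0.0671). To compare numbers at like CpG density, a straight line of z-score on log2 CpG density was fitted over all 373 subfamilies in each library. The H3K9me2 line fell by 0.201 per doubling of CpG density in PBS and the H3K9me3 line fell by 0.0296.

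**Figure D2:**
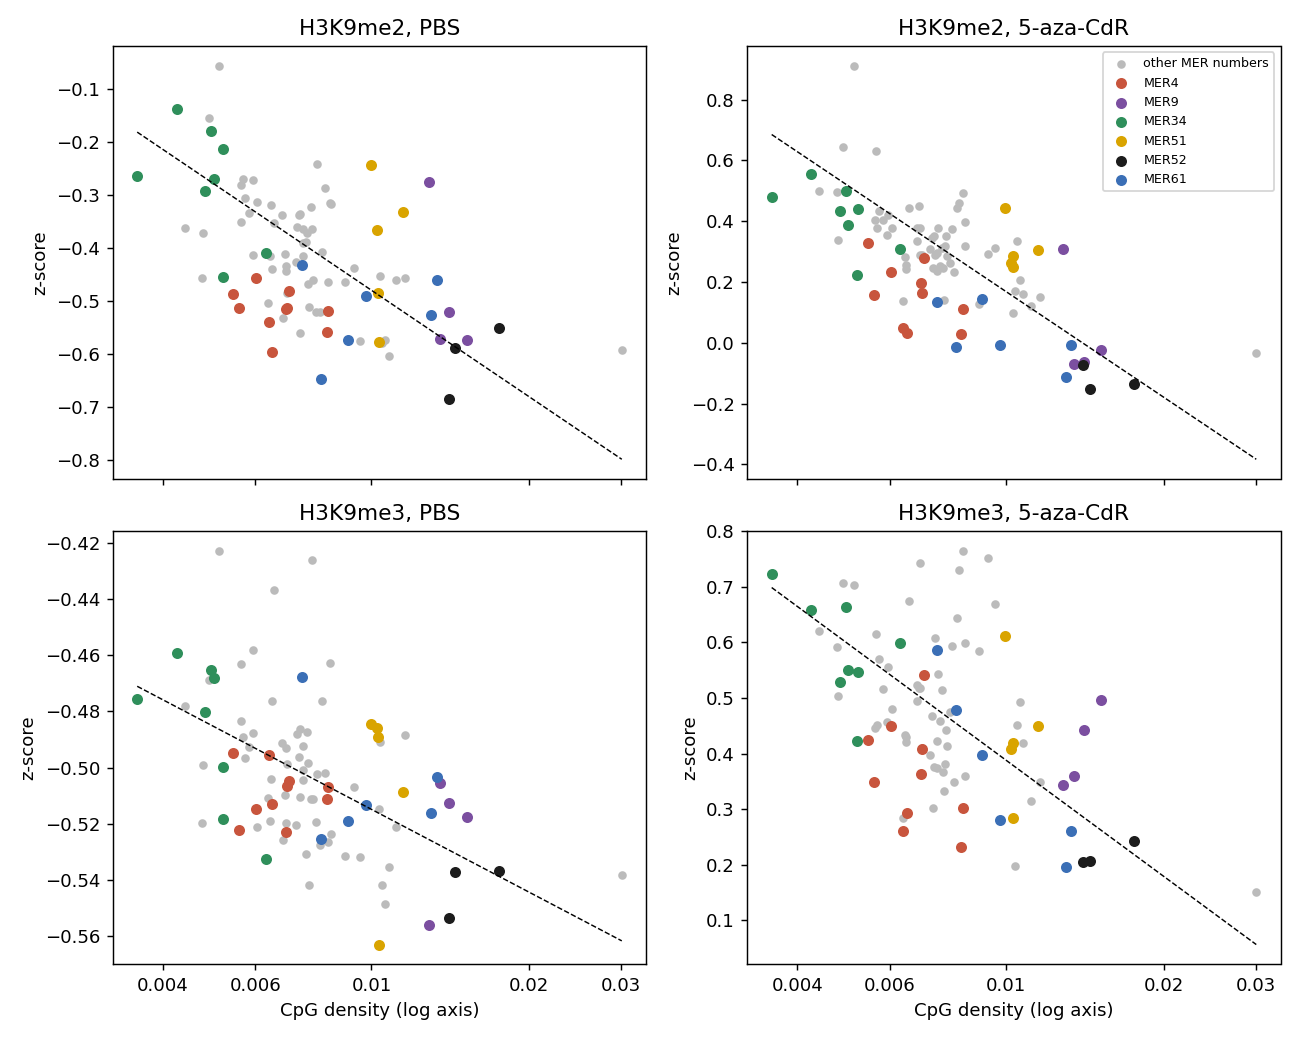
Deposited z-score (y axes, no unit) against CpG density (x axes, log scale, denominator not stated in the deposited header) for the 94 MER LTR subfamilies in the 4 libraries. Colours mark 6 MER numbers and the dashed line is the fit over all 373 subfamilies. All 10 MER4 points lie under the H3K9me2 line in both libraries, and all 5 MER51 points lie above it in 5-aza-CdR.

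MER4, LTRs of an ERV1 group, carried low H3K9me2 for their CpG density. MER4B had H3K9me2 z-scores of -0.597 after PBS and 0.0338 after 5-aza-CdR, and H3K9me3 z-scores of -0.513 and 0.292. MER4D1 had -0.513 and 0.157 for H3K9me2 and -0.522 and 0.348 for H3K9me3. All 10 MER4 subfamilies were under the median of all subfamilies for H3K9me2 in PBS, from -0.597 to -0.457, although their median CpG density (0.00668) was below that of the table. All 10 of 10 were under the CpG line for H3K9me2 in PBS, beside 46.6% of all subfamilies, and all 10 in 5-aza-CdR, beside 49.9%. Their median distance from the line was -0.142 in PBS and -0.191 in 5-aza-CdR, the lowest of the 15 numbers in both on this line. On untransformed CpG density the MER4 median in 5-aza-CdR was -0.185, and those of MER61 (-0.230) and MER52 (-0.198) were lower. With a line on untransformed CpG density, or on ranks, the count was also 10 of 10 in both libraries. For H3K9me3, 9 of 10 were under the line in PBS, with a median distance of -0.0067, and 9 of 10 in 5-aza-CdR, with a median of -0.145. On ranks the PBS count was 8 of 10, as it was on untransformed CpG density. The corresponding shares of all subfamilies were 52.8% and 51.5%. The MER4 pattern was thus clear for H3K9me2 in both libraries and for H3K9me3 mainly after 5-aza-CdR.

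MER34, ERV1 LTRs of the family that gave the human envelope gene ERVMER34-1, were at the other end for H3K9me2 in PBS. MER34C_ had H3K9me2 z-scores of -0.138 after PBS and 0.555 after 5-aza-CdR, and H3K9me3 z-scores of -0.459 and 0.659. MER34C, the most CpG-poor of the 94, had -0.265 and 0.478 for H3K9me2 and -0.475 and 0.723 for H3K9me3. The median H3K9me2 z-score of the 8 was -0.267 in PBS, the highest of the 15 numbers, and their median CpG density (0.00497) was the lowest. Their H3K9me2 range in PBS, from -0.454 to -0.138, lay above that of MER4 by a margin of under 0.01. Ranges of many other pairs of numbers were also apart there. Relative to the CpG line the 8 were spread evenly in PBS, 4 under and 4 above for each mark, with 6 of 8 above for H3K9me2 when the line was fitted on untransformed CpG density. In 5-aza-CdR all 8 were under the H3K9me2 line, beside 49.9% of all subfamilies and 62.8% of the 94, but only 3 of 8 with the untransformed line. The high H3K9me2 level of MER34 in PBS was thus close to that of other subfamilies of like CpG density. MER34C2 stood apart within the number, with the lowest value in 3 of 4 libraries: -0.454 and 0.224 for H3K9me2 and 0.423 for H3K9me3 in 5-aza-CdR.

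MER61, ERV1 LTRs known in human cells for carrying binding sites of the tumour suppressor p53, had low H3K9me2 after 5-aza-CdR. The 6 subfamilies had a median H3K9me2 z-score of -0.509 in PBS (from -0.647 at MER61F to -0.431 at MER61E). In 5-aza-CdR their median was -0.00765 (from -0.112 at MER61B to 0.145 at MER61D). All 6 were under the CpG line for H3K9me2 in 5-aza-CdR, also on the untransformed and rank lines. The log2 line had 49.9% of all subfamilies and 62.8% of the 94 under it there. In PBS 4 of 6 were under the line (5 of 6 with the untransformed line), beside 46.6% of all subfamilies. The MER61 range in 5-aza-CdR did not overlap that of MER34 (0.224 to 0.555), and ranges of many other pairs of numbers were also apart in this library. For H3K9me3 in 5-aza-CdR the same 6 were wide apart, from 0.196 at MER61B to 0.586 at MER61E. Of them 4 were under the line and 2 above it, beside 51.5% of all subfamilies under it.

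MER52, CpG-rich ERV1 LTRs, had the lowest median of the 15 numbers in each of the 4 libraries. MER52A had H3K9me2 z-scores of -0.588 after PBS and -0.152 after 5-aza-CdR, and H3K9me3 z-scores of -0.537 and 0.207. MER52C had -0.684 and -0.0720 for H3K9me2 and -0.554 and 0.206 for H3K9me3. MER52D had -0.551 and -0.135 for H3K9me2 and -0.537 and 0.242 for H3K9me3. MER52C was lowest of all 94 for H3K9me2 in PBS, and MER52A in 5-aza-CdR. The median CpG density of MER52 (0.0144) was also the highest of the 15 numbers, and relative to the CpG line in PBS its median H3K9me2 was -0.00199, and -0.0749 on untransformed CpG density. In 5-aza-CdR all 3 MER52 subfamilies were under the H3K9me2 line on log2 CpG density, on untransformed density and on ranks. Their median was -0.0709 on the log2 line, which had 49.9% of all subfamilies under it, and -0.198 on the untransformed one. MER48, a single ERV1 subfamily with a still higher CpG density, was above the log2 line by 0.206 for H3K9me2 in PBS and by 0.351 in 5-aza-CdR. It was also above the untransformed line in both libraries. On the rank line MER48 was above by only 1.83 percentile points in PBS and 3.48 in 5-aza-CdR. The size of the MER48 excess thus depended on the line. Its own values were -0.592 and -0.0318 for H3K9me2 and -0.538 and 0.150 for H3K9me3.

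MER9, the ERVK LTRs of the set, held a pair of unlike patterns. MER9a1, MER9a2 and MER9a3 had H3K9me2 z-scores of -0.573, -0.522 and -0.572 after PBS, and of -0.0251, -0.0641 and -0.0683 after 5-aza-CdR. MER9B, with a CpG density of 0.0129 against 0.0135 to 0.0152 for the others, had -0.275 in PBS and 0.310 in 5-aza-CdR. MER9B was 0.278 above the CpG line for H3K9me2 in PBS, the largest distance among the 94 on that line. On untransformed CpG density MER9B was 0.210 above it and MER92C 0.290. For H3K9me3 MER9B was at the other end of its number. It had the lowest z-scores, -0.556 in PBS and 0.344 in 5-aza-CdR, against -0.518 to -0.506 and 0.360 to 0.496 for the other members. In PBS MER9B was thus high for 1 mark and among the 3 lowest of the 94 for the other.

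MER51 and MER50, ERV1 LTRs with CpG densities above the median of the table, carried more H3K9me2 than the CpG line gave. All 5 MER51 subfamilies were above the H3K9me2 line in 5-aza-CdR, on each of the 3 lines tried. In PBS 4 of 5 were above it (3 of 5 with the untransformed line). Of all subfamilies, 49.9% were under the log2 line in 5-aza-CdR and 46.6% in PBS. MER51D was highest, with H3K9me2 z-scores of -0.243 after PBS and 0.442 after 5-aza-CdR, and H3K9me3 z-scores of -0.484 and 0.612. MER51E was the exception in PBS, at -0.577 for H3K9me2 and at -0.563 for H3K9me3, the lowest H3K9me3 value of the 94 in PBS. In 5-aza-CdR MER51E had 0.251 for H3K9me2, beside 0.261 for MER51B, and 0.284 for H3K9me3. The 3 MER50 subfamilies were above the H3K9me2 line in PBS by a median of 0.0656, with 2 of 3 above it on untransformed CpG density. In 5-aza-CdR all 3 were above the log2 line and 1 of 3 above the untransformed one. MER50C was the highest of them in all 4 libraries, at -0.316 and 0.320 for H3K9me2 and -0.463 and 0.599 for H3K9me3.

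MER66, MER83, MER65, MER67 and MER92 are also ERV1 LTRs. MER66 was under the CpG line for H3K9me2 in PBS at 3 of 4 subfamilies (4 of 4 with the untransformed line). In 5-aza-CdR 4 of 4 were above it (3 of 4 with the untransformed line). Of all subfamilies, 46.6% were under the log2 line for H3K9me2 in PBS and 49.9% in 5-aza-CdR. MER66D had H3K9me2 z-scores of -0.464 and 0.491 and H3K9me3 z-scores of -0.527 and 0.765, the highest H3K9me3 value of the 94 in 5-aza-CdR. MER66A had -0.603 and 0.161 for H3K9me2 and -0.535 and 0.419 for H3K9me3. The 3 MER83 subfamilies had low medians in PBS (-0.486 for H3K9me2 and -0.532 for H3K9me3). In 5-aza-CdR their H3K9me3 median was 0.492, above that of the table, and their H3K9me2 median was 0.128, below it. MER65 and MER67 had H3K9me2 medians of 0.398 and 0.394 in 5-aza-CdR. In PBS the 4 MER67 subfamilies were all under the H3K9me2 line, on each line tried, and 3 of 4 MER65 subfamilies were above it (2 of 4 with the untransformed line). In 5-aza-CdR 3 of 4 MER67 subfamilies were still under the H3K9me2 line (2 of 4 with the untransformed line). There 2 of 4 MER65 subfamilies were above it (3 of 4 with the untransformed line).

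MER92 held the highest single MER LTR of the set for H3K9me2. MER92C had H3K9me2 z-scores of -0.0566 after PBS and 0.912 after 5-aza-CdR, the highest of the 94 in both libraries. Its H3K9me3 z-scores were -0.423 and 0.703, the highest of the 94 in PBS. MER92A and MER92B were lower for H3K9me2, at -0.363 and -0.414 after PBS and 0.501 and 0.354 after 5-aza-CdR. Both were under the CpG line for H3K9me2 in both libraries, except that MER92A was above the untransformed line in 5-aza-CdR. MER92C was above the line by 0.229 and 0.407, so the number did not form a uniform group.

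The 18 ERVL subfamilies, under 9 numbers, spanned less of the scale. Their CpG densities ran from 0.00573 at MER77B to 0.00926 at MER88, and their H3K9me2 z-scores in PBS from -0.532 at MER74B to -0.288 at MER70B. The medians over the 18 were -0.420 and 0.300 for H3K9me2 and -0.511 and 0.432 for H3K9me3. The 72 ERV1 subfamilies had medians of -0.454 and 0.289 for H3K9me2 and -0.503 and 0.454 for H3K9me3, so the ERV1 and ERVL classes lay close together. Within ERVL, all 3 MER70 subfamilies were above the H3K9me2 line in PBS, on each of the 3 lines. All 3 MER74 subfamilies were under it in both libraries, also on each line. Of all subfamilies, 46.6% were under the log2 line in PBS and 49.9% in 5-aza-CdR. MER74A had -0.512 and 0.141 for H3K9me2 and -0.542 and 0.333 for H3K9me3. MER70B had -0.288 and 0.461 for H3K9me2 and -0.502 and 0.731 for H3K9me3. MER21A, an LTR known as the placental promoter of the human aromatase gene CYP19A1, had -0.324 and 0.317 for H3K9me2 and -0.511 and 0.381 for H3K9me3. The 3 MER21 subfamilies were under the H3K9me3 line in both libraries, on each line. The log2 line had 52.8% of all subfamilies under it in PBS and 51.5% in 5-aza-CdR. MER68B, of a number with 2 members, had the second highest H3K9me3 z-score of the 94 in PBS (-0.426) and was 0.0780 above the line there.

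**Figure D3:**
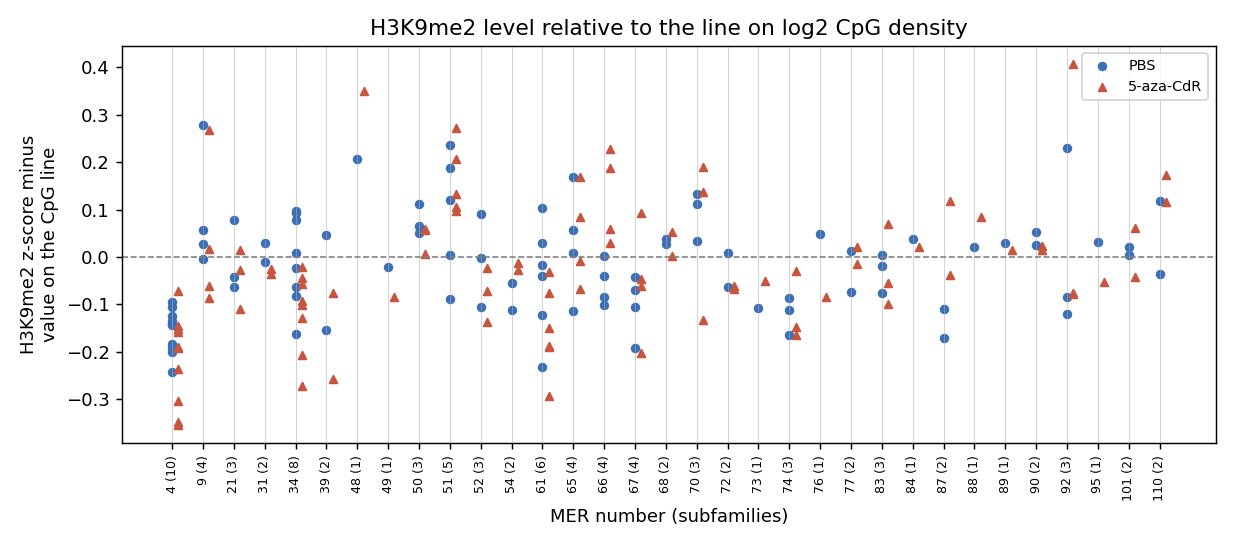
Distance of the H3K9me2 z-score from the line on log2 CpG density fitted over all 373 subfamilies (y axis, z-score units) for the 94 MER LTR subfamilies by MER number, with the number of subfamilies in brackets (x axis). Circles are PBS and triangles 5-aza-CdR. MER4 lies under 0 throughout, from -0.243 to -0.0944 in PBS, while MER51 lies above 0 in 5-aza-CdR and MER9B and MER92C stand above the other members of their numbers.

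The second question was how the MER LTRs differed between treatments. For each mark, 94 of 94 subfamilies had the higher z-score after 5-aza-CdR, beside 99.7% of all subfamilies for H3K9me2 and 100% for H3K9me3. The median difference was 0.690 for H3K9me2 (lowest 0.415, highest 0.981) and 0.955 for H3K9me3 (lowest 0.688, highest 1.29), close to the medians of all subfamilies, 0.702 and 0.973. In place of a test, a subfamily was counted as past the limit when its difference was over 2 robust SDs away from the median of all 373, the robust SD being the median absolute deviation scaled to an SD. The robust SD was 0.125 for H3K9me2 and 0.143 for H3K9me3. For H3K9me2, 3 of 94 were above the limit, beside 2.95% of all subfamilies, and 3 of 94 were below it, beside 8.04%. For H3K9me3, 2 of 94 were above it, beside 1.88%, and 0 of 94 below it, beside 7.24%. The shares above were near those of the whole table, and those below were smaller.

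**Figure D4:**
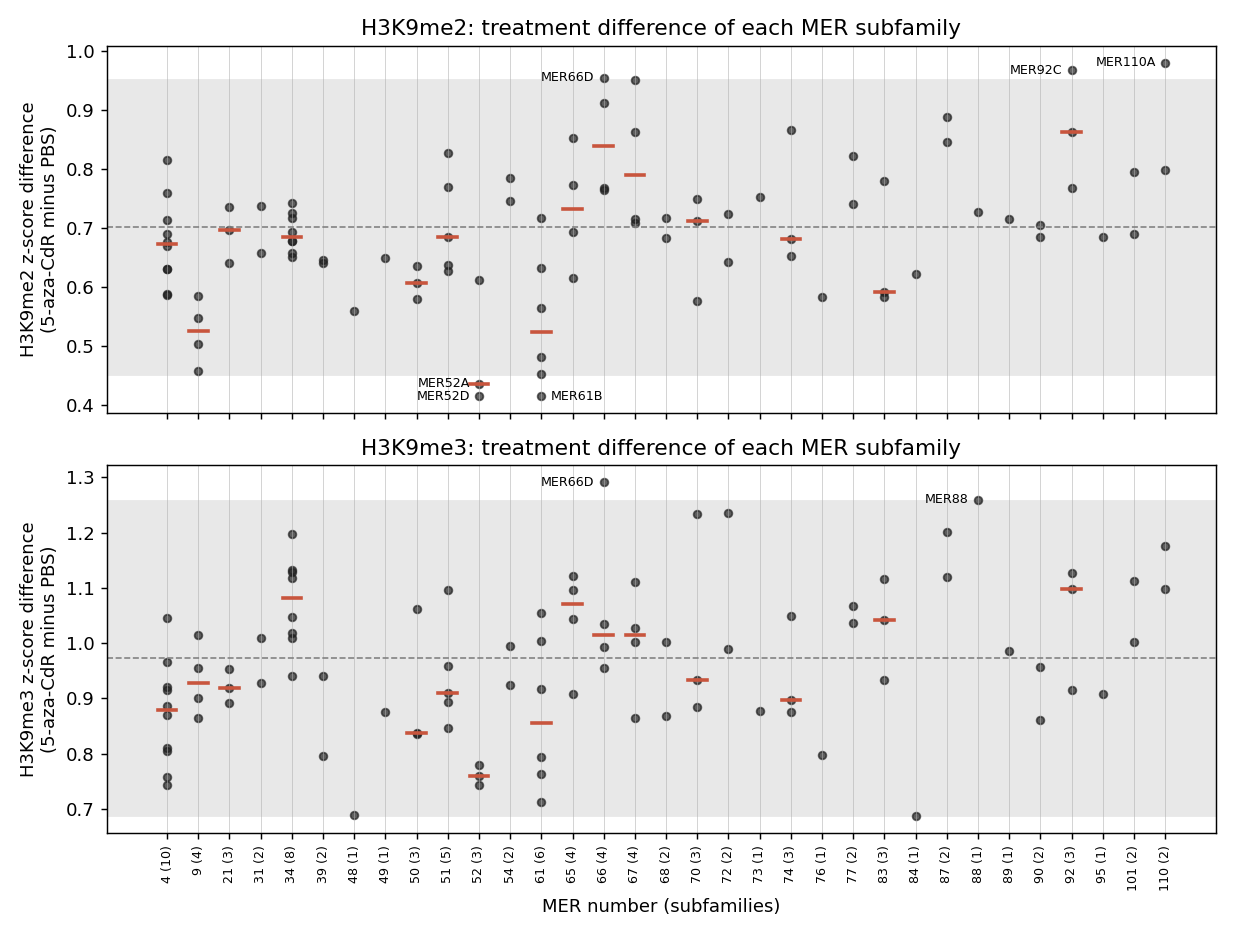
Z-score difference, 5-aza-CdR minus PBS (y axes, z-score units), for H3K9me2 (top) and H3K9me3 (bottom) at the 94 MER LTR subfamilies by MER number, with the number of subfamilies in brackets (x axis). Points are subfamilies, red bars the medians of numbers with at least 3 members, the dashed line the median of all 373 subfamilies and the grey band 2 robust SDs on either side. The 3 H3K9me2 points under the band are MER52A, MER52D and MER61B, and MER66D is above it for both marks.

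The subfamilies below the limit for H3K9me2 were MER61B (0.415), MER52D (0.416) and MER52A (0.437), and MER61A (0.454) was just inside it. They are CpG-rich, with densities from 0.0130 to 0.0176. On the CpG line of the difference itself, all 3 were within the limit, at -1.47, -0.887 and -1.07 robust SDs. By number, the median H3K9me2 difference was lowest for MER52 (0.437), MER61 (0.524) and MER9 (0.525). These 3 medians, and those of MER50 (0.608), MER83 (0.592) and MER34 (0.686), were below that of all subfamilies on the deposited scale, with mean 0 and SD 1 in each library, on ranks and relative to CpG density. For MER34 the deposited distance was only -0.127 robust SDs. Relative to CpG density the MER9 median was only -0.275 robust SDs away, with 2 of 4 members below. Those of MER50 and MER83 were at -0.261 and -0.375 there, each with 2 of 3 members below. The MER4 median (0.673) was below as deposited and relative to CpG density and above on the other scales.

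Those above the limit for H3K9me2 were MER110A (0.981), MER92C (0.968) and MER66D (0.955), with MER67D (0.952) next to it. MER92C was within the limit on the other 3 scales, at 0.745 robust SDs with SD 1, 0.180 on ranks and 1.78 relative to CpG density. MER110A and MER66D stayed above it on each of these scales. MER110A had H3K9me2 z-scores of -0.351 after PBS and 0.630 after 5-aza-CdR, while MER110, its partner, had -0.155 and 0.644. The pair thus differed in PBS and were close after 5-aza-CdR. By number, MER92 (0.863), MER66 (0.840), MER67 (0.790) and MER65 (0.733) had median H3K9me2 differences above that of all subfamilies on each of the 4 scales. MER65 was evenly split, with 2 of 4 members above on each scale. Its median was only 0.252 robust SDs above as deposited and 0.0657 relative to CpG density. For MER66 the median was 1.11 robust SDs above as deposited, 2.01 with SD 1, 2.25 on ranks and 1.97 relative to CpG density. All 4 MER66 subfamilies were above the median of the table on each scale. Their range (0.764 to 0.955) did not overlap those of MER34 (0.652 to 0.743), MER61 (0.415 to 0.718) or MER9 (0.458 to 0.585). It was also apart from those of MER21, MER50, MER52 and MER70. Many other pairs of numbers had ranges apart too, so such a gap is not particular to MER66.

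For H3K9me3 the highest differences were those of MER66D (1.29) and MER88 (1.26), both above the limit, followed by MER72B (1.24) and MER70B (1.23). The lowest were those of MER84 and MER48 (0.688 and 0.689), MER61B (0.712) and MER4A1_ (0.743), all within the limit. MER84 and MER48 lay next to the lower limit of 0.687. MER88, an ERVL subfamily, had H3K9me3 z-scores of -0.507 and 0.753 and H3K9me2 z-scores of -0.437 and 0.291, so its H3K9me2 difference (0.728) was near the median of the table. By number, MER4 (0.879), MER61 (0.856) and MER50 (0.838) had median H3K9me3 differences below that of all subfamilies on all 4 scales, and MER66 (1.01) and MER83 (1.04) had medians above it. MER52 had the lowest median as deposited (0.759), was below relative to CpG density and with SD 1, and was at 0 on ranks. MER92 had the highest as deposited (1.10) and was below the median on the other 3 scales. MER34 was at 1.08, with 7 of 8 members above the median as deposited and 3 of 8 relative to CpG density. H3K9me3 varied little in PBS, and across the 94 its difference followed the 5-aza-CdR z-score at a Spearman correlation of 0.98, beside 0.67 for H3K9me2. Among the other 279 subfamilies these were 0.99 and 0.74. The difference contains the 5-aza-CdR z-score, so a high value is largely built in where PBS varies little.

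The marks ordered the MER LTRs alike in part. Their Spearman correlation across the 94 was 0.64 in PBS and 0.74 in 5-aza-CdR, and that of the treatment differences was 0.57. Among the other 279 subfamilies these were 0.79, 0.88 and 0.73. The marks share no library listed here, and no source used here says whether an input library was common to both. MER66D was past the limit for both marks and 0 subfamilies were below it for both. As deposited, the differences of the 4 MER9 subfamilies had a median of -1.41 robust SDs from that of the table for H3K9me2, with 4 of 4 below it. Relative to CpG density that median was -0.275, with 2 of 4 below. For H3K9me3 the median was -0.315 robust SDs, with 3 of 4 below as deposited and 1 of 4 on the SD 1 scale. The MER83 median was -0.881 robust SDs for H3K9me2 and 0.481 for H3K9me3, in the same directions on each of the 4 scales. As deposited, 2 of 3 members were below for H3K9me2 and 2 of 3 above for H3K9me3. Only MER83B (-0.881 and 1.01) was itself on opposite sides for the marks. Other numbers also had medians on opposite sides for the marks, among them MER34 as deposited, with -0.127 for H3K9me2 and 0.770 for H3K9me3. MER92 did so with SD 1, with 0.745 for H3K9me2 and -1.73 for H3K9me3.

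**Figure D5:**
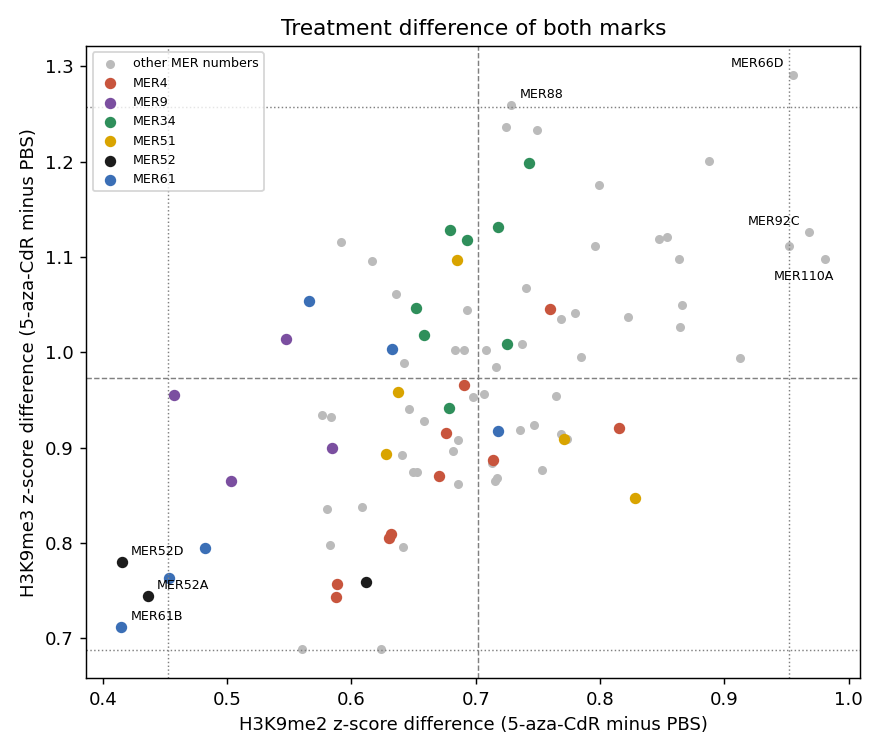
Z-score difference, 5-aza-CdR minus PBS, of H3K9me3 (y axis) against that of H3K9me2 (x axis), in z-score units, for the 94 MER LTR subfamilies, with 6 MER numbers in colour. Dashed lines are the medians of all 373 subfamilies and dotted lines the limits of 2 robust SDs. MER52 and part of MER61 lie at the lower left, MER9 lies low for H3K9me2 at middle H3K9me3 values, and MER66D is alone past both upper limits.

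Among the 28 subfamilies under numbers with 1 or 2 members, the H3K9me2 difference had a median of 0.717 and ran from 0.560 at MER48 to 0.981 at MER110A. Their H3K9me3 difference had a median of 0.987 and ran from 0.688 at MER84 to 1.26 at MER88. MER87 and MER87B had low H3K9me2 z-scores in PBS (-0.559 and -0.576) and high differences for both marks (0.847 and 0.888 for H3K9me2, 1.12 and 1.20 for H3K9me3), all within the limit. MER39, an LTR that serves as the endometrial promoter of the human prolactin gene, had H3K9me2 z-scores of -0.270 and 0.376 and H3K9me3 z-scores of -0.489 and 0.452. MER39B was lower in all 4 libraries, at -0.503 and 0.138 for H3K9me2 and -0.511 and 0.285 for H3K9me3, while their H3K9me2 differences were alike (0.647 and 0.641). MER101 was among the 3 highest of the 94 for H3K9me3 in PBS (-0.437), beside -0.521 for MER101B. The pairs of MER31, MER54, MER77 and MER90 and the single MER49, MER73, MER76, MER89 and MER95 lay within the limit for both marks.

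For orientation among the MER numbers left out, the 4 MER11 subfamilies, ERVK LTRs like MER9, had a median H3K9me2 difference of 0.487 beside 0.525 for MER9. Their median H3K9me3 difference was 0.779, and its range (0.697 to 0.845) narrowly missed that of MER9 (0.865 to 1.01). Other pairs of numbers had ranges apart for this difference too, among them MER9 and MER52, so such a gap is not particular to MER11. MER11 and MER9 both had a median CpG density of 0.0138.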

How the data were processed

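H3K9me2 and H3K9me3 ChIP-seq libraries from HCT116 cells, 1 per mark and treatment, were read from 1 deposited table of LTR subfamilies. Per the file headers, the authors summarised each library as a z-score per LTR subfamily before deposit, without stating what the score was centred and scaled on. The deposited CpG density is the authors' ratio, and its denominator is not stated. Per the submitters' processing notes, Bowtie2 and hg19 were used. The sources used here do not describe counting, multi-mapping reads or input. Neither depth nor counting error could be given, and reads shared by related subfamilies could not be separated.

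Members were found by name. The members, lists and limits were chosen with earlier results of these data known. Differences are 5-aza-CdR minus PBS. Named subfamilies were the extremes by difference, PBS level, CpG density, distance from the CpG line and within each number of 3 or more, all those past the limit, and members of smaller numbers. The rank line was chosen after seeing the data. Shares of all subfamilies under a line are given for the log2 line only. ERV classes by number are background knowledge of repeat annotation. Python 3.11.15 with pandas 2.3.3 and numpy 2.4.6 was used. The code for the limit and line was run on simulated normal values with large known shifts. That run does not check calls near the limit. Alternatives were other scales, limits, references and member sets. LTR sequences were not used here.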

Additional observations from a re-analysis of the deposited data

How the results depend on the processing

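Counts of MER LTRs past the limit were small and depended on the setting, and so did the share of all 373 subfamilies past it. For H3K9me2, 3 above and 3 below became 7 and 0 with mean 0 and SD 1 in each library, beside 8.04% and 2.95% of all subfamilies. As deposited those shares were 2.95% above and 8.04% below. With a limit of 3 robust SDs the counts were 0 and 0, beside 1.07% and 2.14% of all, and with 2 ordinary SDs also 0 and 0, beside 1.07% and 2.68%. On ranks 9 were above, beside 7.77% of all, relative to CpG density 0 were below, beside 1.88%, and with the non-members as reference 0 were above, beside 1.88%. For H3K9me3, 2 above and 0 below, beside 1.88% and 7.24% of all, became 6 and 3 with SD 1, beside 5.36% and 4.56%. On ranks they were 10 and 10, beside 7.24% and 6.43% of all, and relative to CpG density 5 and 1, beside 4.02% and 2.95%. With a limit of 3 robust SDs and with 2 ordinary SDs 0 were above, beside 0.536% of all for each. Without the 20% of subfamilies nearest 0, 0 were above, beside 0.671% of the 298 kept, and with the non-members as reference 1 was, beside 1.34% of all. The wider limits call fewer by construction, and the cause of the other shifts was not tested. No named call turned to the other side. The median H3K9me2 difference of the set, -0.0946 robust SDs from that of all subfamilies, was above it with SD 1 (0.0298) and with MER11, MER41 and MER57 (0.00161), so its side is not settled. Levels moved by less than 1 robust SD, and correlations with CpG density kept their sign. The median H3K9me3 level of the set in PBS was at -0.0643 robust SDs from that of all subfamilies as deposited. Relative to log2 CpG density it was at 0.0820, so its side is not settled either. No paired analysis was possible because each group has 1 library, and none could be left out.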
